A study of Homo sapiens with 2 samples.

Results

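The genes described here encode the CUL4 ubiquitin ligases and the proteins that work with them. They are CUL4A, CUL4B, DDB1, DDB2, RBX1, DTL, CRBN and CAND1, 8 of 20037 protein-coding genes. They were chosen by name and not by their peaks, but with earlier results of these data known. A peak was assigned to a gene when it lay inside the gene or within 20 kb of it. By this rule the genes held 32 of 61700 RUNX2 peaks and 31 of 42683 MTA1 peaks on the nuclear chromosomes. The peaks came from untreated MDA-MB-231, a cell line from a triple-negative breast tumour, profiled by CUT&Tag with an antibody against the transcription factor RUNX2 or against MTA1, a subunit of the NuRD remodelling and deacetylase complex. CUT&Tag cuts and tags DNA near an antibody-bound protein. There was 1 library per antibody and no control library was analysed here, so no value has a replicate, and a difference between the lists is a difference between single libraries. MDA-MB-231 cells are known to lack CDKN2A, and neither list had a peak in CDKN2A or within 20 kb of it, as was the case for 12.7% of protein-coding genes.

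In a CUL4 ligase, CUL4A or CUL4B is the scaffold. DDB1 joins one end of it and carries an exchangeable substrate receptor, and the RING protein RBX1 joins the other end and brings the ubiquitin-charged enzyme. DDB2 is the receptor that recognises ultraviolet damage in DNA, DTL (also named CDT2) is the receptor that marks replication proteins for destruction in S phase, and CRBN is the receptor bound by thalidomide. CAND1 binds cullins that carry no NEDD8 and allows receptors to be exchanged. The study examined RUNX2 together with the NuRD complex and CUL4B. The question here was where the RUNX2 and MTA1 peaks lie on the genes of the ligase itself.

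The promoter stretches under the peaks are shown first, because an MTA1 peak covered a start in each of the 8 genes. CUL4A and CUL4B are not in this block, and neither library covered their outermost start. Each line gives the bases just before the outermost annotated start (RefSeq, GRCh38.p14), in the direction of transcription, and stops short of any neighbouring gene. Capitals mark bases covered by a peak of both libraries, or, for CRBN, by the MTA1 peak, since CRBN had no RUNX2 peak.
DTL, chr1:212035558-212035747, plus strand: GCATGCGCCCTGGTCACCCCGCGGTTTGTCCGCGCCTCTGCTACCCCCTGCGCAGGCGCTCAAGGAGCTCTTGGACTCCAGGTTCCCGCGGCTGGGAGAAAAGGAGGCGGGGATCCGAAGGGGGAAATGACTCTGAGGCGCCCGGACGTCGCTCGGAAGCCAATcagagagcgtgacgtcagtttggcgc
RBX1, chr22:40951128-40951377, plus strand: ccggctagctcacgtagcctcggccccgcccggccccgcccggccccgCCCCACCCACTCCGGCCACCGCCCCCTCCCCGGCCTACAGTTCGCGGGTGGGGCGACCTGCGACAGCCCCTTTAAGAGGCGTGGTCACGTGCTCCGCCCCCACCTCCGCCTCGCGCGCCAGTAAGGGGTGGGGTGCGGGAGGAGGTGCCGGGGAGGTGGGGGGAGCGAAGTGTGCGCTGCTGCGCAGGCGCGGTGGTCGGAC
CAND1, chr12:67269108-67269357, plus strand: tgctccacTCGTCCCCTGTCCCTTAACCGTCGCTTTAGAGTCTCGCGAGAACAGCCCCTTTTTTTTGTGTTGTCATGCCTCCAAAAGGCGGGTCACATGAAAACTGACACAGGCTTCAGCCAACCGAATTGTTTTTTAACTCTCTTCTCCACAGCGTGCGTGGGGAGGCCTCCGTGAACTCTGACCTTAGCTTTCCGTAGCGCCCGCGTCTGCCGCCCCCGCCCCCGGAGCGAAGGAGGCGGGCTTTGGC
DDB1, chr11:61333106-61333227, minus strand: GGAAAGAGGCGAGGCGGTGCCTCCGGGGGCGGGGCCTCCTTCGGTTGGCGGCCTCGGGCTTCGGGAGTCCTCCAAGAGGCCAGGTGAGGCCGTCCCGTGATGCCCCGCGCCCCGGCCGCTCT
DDB2, chr11:47214204-47214453, plus strand: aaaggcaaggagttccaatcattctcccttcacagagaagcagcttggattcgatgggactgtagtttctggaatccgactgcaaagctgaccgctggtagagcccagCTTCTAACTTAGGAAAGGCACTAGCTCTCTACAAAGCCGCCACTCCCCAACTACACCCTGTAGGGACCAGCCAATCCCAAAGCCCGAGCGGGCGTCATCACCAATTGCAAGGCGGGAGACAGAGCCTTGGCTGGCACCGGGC
CRBN, chr3:3179718-3179967, minus strand: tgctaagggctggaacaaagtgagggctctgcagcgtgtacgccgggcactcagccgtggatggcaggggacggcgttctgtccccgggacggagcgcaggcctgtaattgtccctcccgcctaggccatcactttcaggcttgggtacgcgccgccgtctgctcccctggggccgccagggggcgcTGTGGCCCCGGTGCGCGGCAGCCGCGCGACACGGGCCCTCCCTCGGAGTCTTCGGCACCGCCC
Both libraries covered 242 of the 250 bases shown for CAND1, 202 of 250 for RBX1, 164 of 190 for DTL, 142 of 250 for DDB2 and 122 of 122 for DDB1. At CRBN the MTA1 peak covered only the 63 bases next to the start.

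Peaks of RUNX2 were found at 7 of the 8 genes, and peaks of MTA1 at 8 of 8. The exception was CRBN. Most protein-coding genes have such peaks: 84.4% had a RUNX2 peak inside or within 20 kb, 79.7% an MTA1 peak and 76.9% both. Among genes of the same range of length as these 8, the shares were 89.4%, 86.2% and 83.2%. The presence of a peak within 20 kb therefore did not set the ligase genes apart. The numbers per gene differed widely, from 0 RUNX2 peaks at CRBN and 1 at CAND1 to 9 at DDB2, and from 2 MTA1 peaks at CUL4A, RBX1, CRBN and CAND1 to 11 at DDB2. As the genes differ in length, the numbers were also expressed per 100 kb of the gene with its flanks. The median over the 8 genes was 4.71 RUNX2 and 3.04 MTA1 peaks per 100 kb, beside 3.57 and 2.48 over all protein-coding genes. DDB2 had 13.9 and 17.0 peaks per 100 kb, above 97.7% and 99.6% of protein-coding genes.

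**Figure D1:**
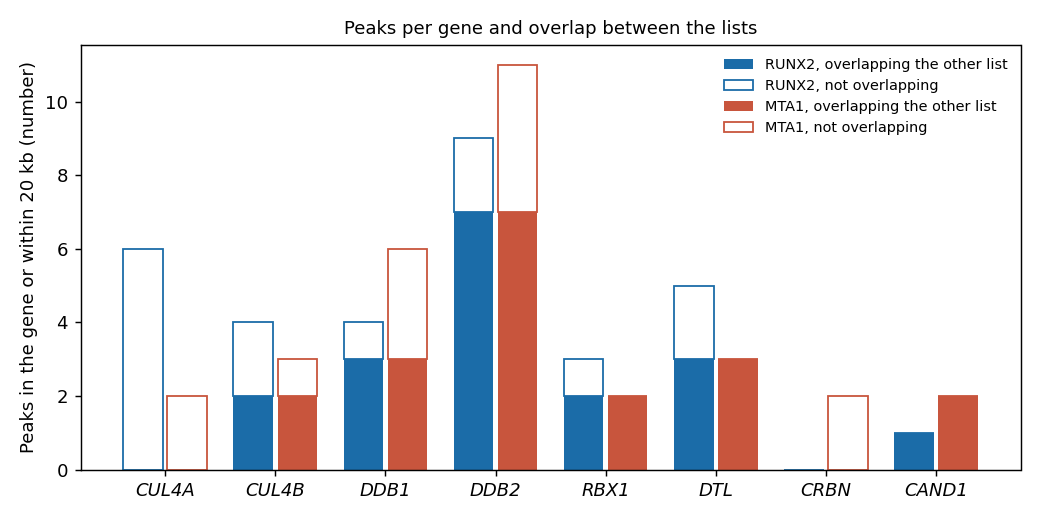
Number of RUNX2 (blue) and MTA1 (red) peaks inside each gene or within 20 kb of it, with the filled part of each bar giving the peaks that overlap a peak of the other list by at least 1 bp. DDB2 held 9 RUNX2 and 11 MTA1 peaks, CRBN held no RUNX2 peak, and none of the CUL4A peaks overlapped.

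At transcription starts, a RUNX2 peak lay within 1 kb of an annotated start in 7 of 8 genes, and an MTA1 peak in 8 of 8. Among the 15843 protein-coding genes with a start in the promoter table the shares were 52.1% and 53.9%, and 46.9% had both. In 6 of 8 genes the RUNX2 start peak overlapped an MTA1 peak, against 45.1%. At the outermost start alone the counts were 6 of 8 for RUNX2 and 7 of 8 for MTA1, against 49.6% and 51.6%, CUL4B being the gene that dropped out. An MTA1 peak covered the first transcribed base of at least 1 start in each of the 8 genes, against 37.5% of protein-coding genes. A RUNX2 peak did so in 5 of 8, against 31.1%. These are counts over 8 genes chosen by name, and no test was made of them. Each peak was ranked by the percentage of its own list with a lower score, because the scale of the score is not known. The strongest start peak of each gene had a median rank of 74.7% for RUNX2 over 7 genes and of 72.7% for MTA1 over 8 genes. The same medians over all protein-coding genes with a start peak were 72.0% and 76.4%.

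**Figure D2:**
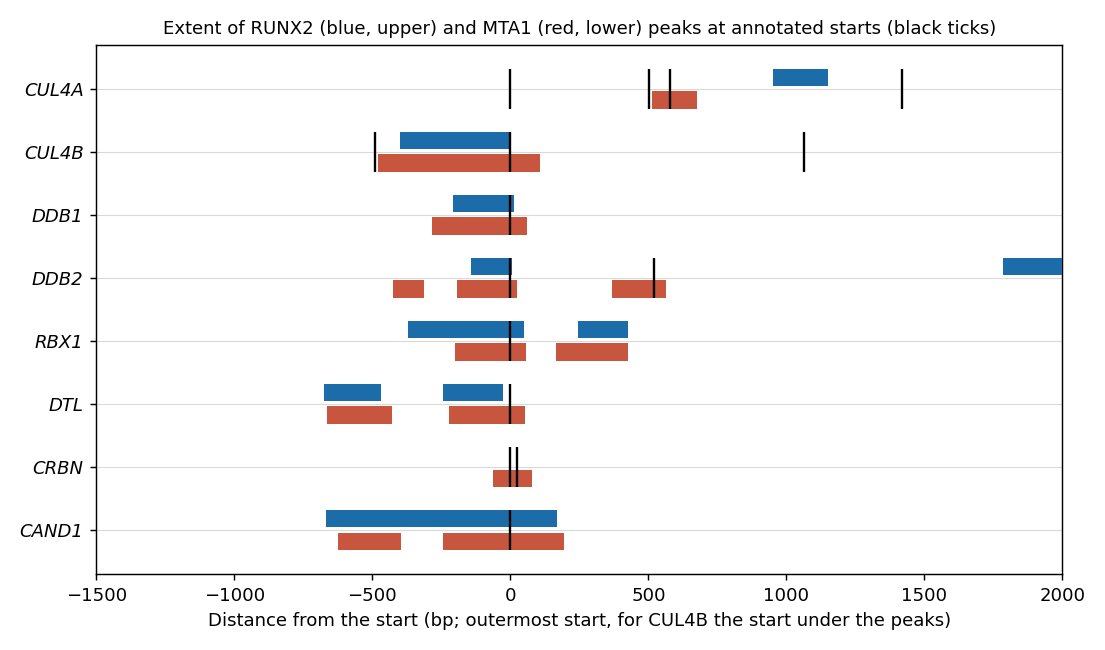
Extent of RUNX2 (blue, upper) and MTA1 (red, lower) peaks in bp around the starts of the 8 genes, with black ticks for annotated starts and transcription running to the right. MTA1 peaks cover a start in every gene, while the CUL4A start region holds a RUNX2 peak that touches neither a start nor the MTA1 peak.

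The scaffold genes differed from each other. CUL4A (chr13:113208193-113267108, plus strand) had 6 RUNX2 peaks and 2 MTA1 peaks, and 0 of the 8 overlapped a peak of the other list. Its MTA1 peak at chr13:113208708-113208868 (score 8.90, rank 58.9%) covered the third of its 4 annotated starts. The RUNX2 peak nearest to a start, chr13:113209144-113209344, lay between the third and the fourth start, 276 bp from the MTA1 peak. Its score of 3.58 was higher than only 5.92% of RUNX2 peaks. The strongest RUNX2 peaks of CUL4A lay farther away. They were chr13:113222205-113222426 inside the gene (score 7.21, rank 55.4%), chr13:113275452-113275617 beyond its far end (score 6.88, rank 53.7%) and chr13:113255588-113255686 inside (score 5.22, rank 29.3%). The other inside peaks had ranks of 0.655% and 12.3%. The second MTA1 peak was inside the gene at chr13:113216750-113216908 (score 7.46, rank 48.5%). PCID2, a neighbour on the opposite strand, overlaps the first 477 bp of CUL4A, and the outermost starts of the pair are 476 bp apart.

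CUL4B (chrX:120523858-120575532, minus strand) had 4 RUNX2 and 3 MTA1 peaks. At its outermost start neither library had a peak, the nearest being 14170 bp (RUNX2) and 14090 bp (MTA1) away. Both libraries instead had a peak over the internal start 14.6 kb downstream of the outermost. The internal starts 14.1 and 15.6 kb downstream were covered by neither library. The RUNX2 peak chrX:120560960-120561362 (score 12.1, rank 74.7%) lay wholly inside the MTA1 peak chrX:120560854-120561442 (score 12.3, rank 73.1%), and the centres were 13 bp apart. The strongest RUNX2 peak of the gene was farther inside, at chrX:120549065-120549385 (score 17.8, rank 84.8%), with a weaker one beside it at chrX:120549483-120549606 (score 4.66, rank 20.6%). Neither overlapped an MTA1 peak, and an MTA1 peak at chrX:120550105-120550264 (score 6.07, rank 36.3%) followed 499 bp away. A second overlapping pair lay beyond the far end of the gene, chrX:120518072-120518170 for RUNX2 (score 5.22, rank 29.3%) and chrX:120518124-120518380 for MTA1 (score 8.25, rank 54.6%).

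The hexamer TGTGGT, in either orientation the core of the site bound by RUNX proteins, was looked for in the promoter windows from 250 bases before to 50 bases after each of the 16 annotated starts of the 8 genes. It was present in 1 of 16 windows, at CUL4B. In all, 13.1% of 35116 promoter windows and 14.5% of the 15843 protein-coding genes held it, so 1 of 8 genes was near the general share. The CUL4B match also fitted the longer form TGTGGTT, which contains the hexamer and was present in 4.27% of windows. It began 59 bases before the second internal start and was covered by the peaks of both libraries. It is shown with its neighbouring bases on the gene strand, the 7-base match in capitals.
CUL4B, chrX:120561003-120561032, minus strand: ccctttcccccAACCACAgcctctcccctc
No match in the other windows means only that these letters were not in them.

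DDB1 and RBX1, the adaptor and RING subunits of every CUL4 ligase, both had overlapping peaks over their start. At RBX1 (chr22:40951378-40973309, plus strand) both libraries had 1 peak over the start and 1 just inside the gene. RUNX2 peaks lay at chr22:40951007-40951429 (score 16.8, rank 83.4%) and chr22:40951624-40951803 (score 18.2, rank 85.3%). MTA1 peaks lay at chr22:40951176-40951436 (score 21.0, rank 88.8%) and chr22:40951543-40951806 (score 26.8, rank 93.6%). The first peak of each library covered the start, and the second was centred 335 bp (RUNX2) and 296 bp (MTA1) inside the gene. A further RUNX2 peak of the narrowest width in its list, 99 bp, lay inside the gene at chr22:40968162-40968260 (score 5.22, rank 29.3%). Apart from it, RBX1 had no peak away from its start.

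At DDB1 (chr11:61299451-61333105, minus strand) the start carried a RUNX2 peak at chr11:61333092-61333313 (score 7.41, rank 56.5%) inside an MTA1 peak at chr11:61333045-61333389 (score 12.0, rank 72.2%). The start of TKFC, which runs the opposite way, is 123 bp from that of DDB1, and the same peaks lay over both. The strongest peaks in the window were not at DDB1 but 15 to 16.4 kb upstream of it, inside TKFC. There RUNX2 peaks at chr11:61349337-61349712 (score 24.6, rank 90.9%) and chr11:61347960-61348218 (score 28.3, rank 93.1%) overlapped MTA1 peaks at chr11:61349349-61349718 (score 26.5, rank 93.5%) and chr11:61348142-61348257 (score 5.71, rank 27.5%). The second pair had the most unequal ranks of all overlapping pairs at these genes, 65.6 percentage points apart. Of the other DDB1 peaks, 3 of MTA1 and 1 of RUNX2, none overlapped and none ranked above 19.0%.

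Of the substrate receptors, DTL had the strongest start peaks of the 8 genes. Upstream of DTL (chr1:212035748-212105013, plus strand) the RUNX2 peak chr1:212035505-212035721 had a score of 28.2, higher than 93.1% of the list. It ended 27 bp before the start. The MTA1 peak chr1:212035527-212035803 had a score of 32.3, higher than 96.1%, and covered the start. A second pair lay further upstream, chr1:212035072-212035280 for RUNX2 (score 19.1, rank 86.2%) and chr1:212035083-212035320 for MTA1 (score 18.4, rank 85.7%). Another, weaker pair lay at chr1:212030587-212030700 (RUNX2, score 6.16, rank 45.9%) and chr1:212030606-212030741 (MTA1, score 6.76, rank 42.4%). INTS7 runs away from DTL with its start 191 bp upstream, and all 3 pairs reach into INTS7 or lie inside it. Both RUNX2 start peaks were centred nearer to the INTS7 start (56 and 381 bp) than to the DTL start (135 and 572 bp). Inside DTL were 2 RUNX2 peaks without an MTA1 peak, at chr1:212040689-212040935 (score 7.26, rank 55.5%) and chr1:212088441-212088712 (score 3.67, rank 6.85%).

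DDB2 (chr11:47214454-47239217, plus strand) had the most peaks, spread over the whole window. Of 9 RUNX2 peaks 7 overlapped an MTA1 peak, and of 11 MTA1 peaks 7 overlapped a RUNX2 peak. The RUNX2 ranks were moderate, between 47.3% and 73.2%. The MTA1 ranks ran from 0.375% to 68.1%, and low ones of 9.26%, 24.2% and 36.3% were among them. The highest RUNX2 scores were at chr11:47216240-47216733 (11.4) inside the gene, chr11:47204732-47204974 (10.8) upstream of it and chr11:47214312-47214460 (10.4) over the first start. For MTA1 they were at chr11:47214821-47215019 (10.8) over the second start, chr11:47234065-47234606 (10.6) inside the gene and chr11:47241943-47242231 (10.0) beyond its end. The MTA1 peak over the first start was chr11:47214261-47214477 (score 9.78, rank 63.7%), and a weaker one lay before it at chr11:47214028-47214143 (score 5.44, rank 24.2%). The first start was covered by both libraries and the second, 520 bp downstream, by MTA1 only. Part of the DDB2 count belongs to other genes. ACP2, on the opposite strand, ends 85 bp beyond the far end of DDB2, and NR1H3, on the same strand as DDB2, lies 9083 bp beyond it. Their outermost starts are 34360 bp (ACP2) and 33846 bp (NR1H3) from that of DDB2. Inside these neighbours lay 3 of the RUNX2 and 4 of the MTA1 peaks, some of them at their starts. Inside DDB2 itself were 4 peaks of each library.

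CRBN (chr3:3149633-3179717, minus strand) was the only one of the 8 genes without a RUNX2 peak. The nearest RUNX2 peak was 22399 bp from the gene, just outside the window, and 40118 bp from the outermost start. The MTA1 peak chr3:3179637-3179780 (score 8.25, rank 54.6%) covered both annotated starts, which are 26 bp apart. A second MTA1 peak lay upstream at chr3:3186830-3186948 (score 5.15, rank 19.2%). An MTA1 peak without a RUNX2 peak within 1 kb of a start was found at 7.0% of protein-coding genes, and within the wider window at 2.87%. A missing peak can be a weak signal below the threshold of the list as well as an absent one, and the number of reads behind each list is unknown.

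CAND1 (chr12:67269358-67319953, plus strand), the exchange factor, had peaks at its start and nowhere else in the window. A single wide RUNX2 peak, chr12:67268691-67269526 (836 bp, score 20.9, rank 88.0%), was the widest peak at the 8 genes. It overlapped 2 MTA1 peaks, chr12:67268735-67268962 (score 14.6, rank 78.8%) and chr12:67269116-67269554 (score 26.5, rank 93.5%), the second of which covered the start.

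**Figure D3:**
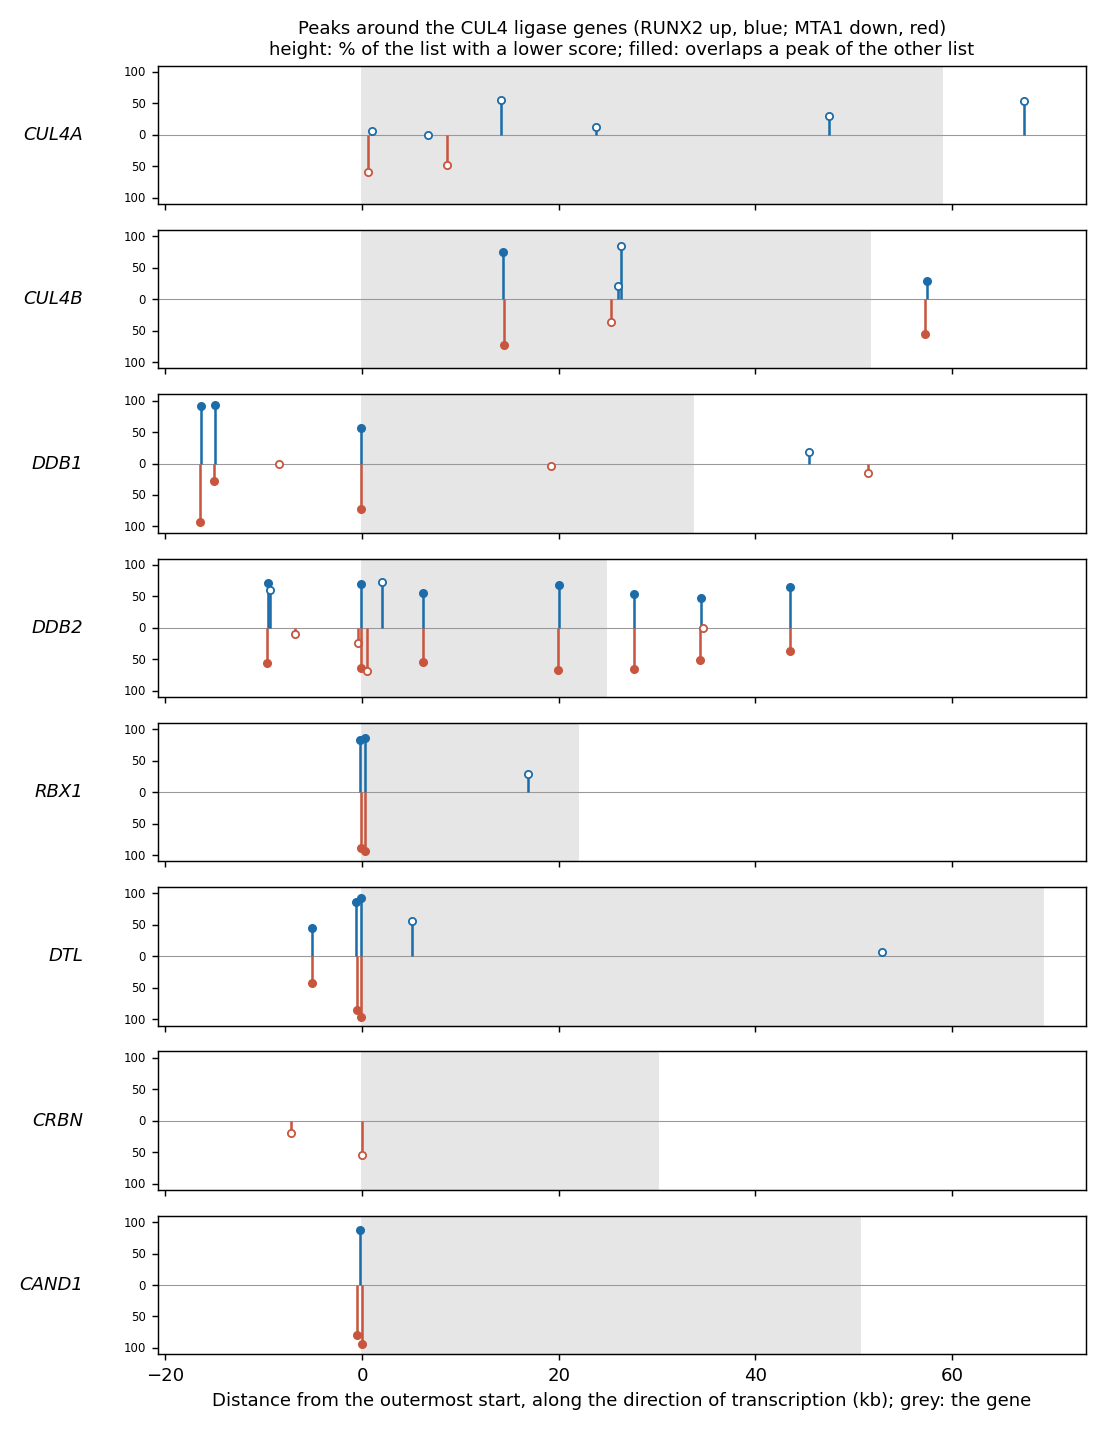
Peaks of RUNX2 (upward, blue) and MTA1 (downward, red) around the 8 genes, by distance in kb from the outermost start along the direction of transcription, with the gene in grey. The height is the percentage of the list with a lower score and filled points overlap a peak of the other list. DTL, RBX1 and CAND1 have their strong peaks at the start, and DDB2 has moderate RUNX2 and weak to moderate MTA1 peaks throughout. CUL4B has 1 of its 2 overlapping pairs 14.4 kb inside the gene and the other beyond its far end.

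The overlap between the lists was compared with that of all peaks near genes. Sharing 1 bp or more counted as overlap. It was seen in 18 of the 32 RUNX2 peaks, or 56.2% (95% exact binomial interval 37.7% to 73.6%). It was seen in 19 of the 31 MTA1 peaks, or 61.3% (42.2% to 78.2%). The shares over all peaks within 20 kb of protein-coding genes, 48.6% and 66.9%, lay inside these intervals, which cover counting error only. The intervals treat peaks as independent, although 9 RUNX2 and 11 MTA1 peaks come from DDB2 and its flanks. By position, overlap was seen in 8 of 9 RUNX2 peaks within 1 kb of a start of the 8 genes, or 88.9% (51.8% to 99.7%), and 10 of the other 23, or 43.5% (23.2% to 65.5%). Over all protein-coding genes these shares were 77.4% and 41.2%, but there a peak near any protein-coding start counted as a start peak. Here only starts of the 8 genes counted, so the 23 include overlapping RUNX2 peaks centred 42 and 51 bp from NR1H3 starts. The shares away from starts are therefore not like for like. The lone RUNX2 start peak without an MTA1 overlap was that of CUL4A. For MTA1, 9 of 13 start peaks overlapped, or 69.2% (38.6% to 90.9%), and 10 of 18 others, or 55.6% (30.8% to 78.5%). Over all protein-coding genes these shares were 77.2% and 63.0%, with the same difference in grouping. The 18 include MTA1 peaks centred 25 bp from an ACP2 start and 57 and 270 bp from NR1H3 starts. Grouped this way, the MTA1 shares of the 8 genes were below the general ones and the RUNX2 shares above. All general shares lay inside the intervals. Without DDB2, left out after seeing the data, 11 of 23 RUNX2 peaks overlapped, or 47.8% (26.8% to 69.4%), below 48.6%. For MTA1 it was 12 of 20, or 60.0%.

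Overlapping peaks also ranked higher within their lists. The median rank was 70.6% for the 18 overlapping RUNX2 peaks and 29.3% for the 14 others. For MTA1 it was 67.2% for 19 and 21.7% for 12. Ranks above 90% were held by 3 of the 32 RUNX2 peaks (9.38%) and 4 of the 31 MTA1 peaks (12.9%). By the definition of the rank, about 10% of each whole list lies there, so these shares were near the general one. The RUNX2 peaks with such ranks were the one ending just before the DTL start and the upstream pair inside TKFC. The overlaps formed 19 pairs, with a median distance of 39 bp between centres and a range of 6 to 260 bp. Over the 19 pairs the ranks had a Spearman rho of 0.59 and a Pearson r of 0.54. The rho was 0.76 over the 9 pairs at starts of the ligase genes and 0.12 over the 10 elsewhere. Among the 10 are pairs whose RUNX2 peaks were centred 42 and 51 bp from NR1H3 starts. Elsewhere therefore means away from starts of the ligase genes, not from all starts. The RUNX2 peak of CAND1 (rank 88.0%) overlapped 2 MTA1 peaks, so its rank was counted in 2 of the 9 pairs. The pairs are few and share genes and libraries, and the rho is given as a description. MTA1 had the higher rank in 9 of the 19 pairs and RUNX2 in 10.

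**Figure D4:**
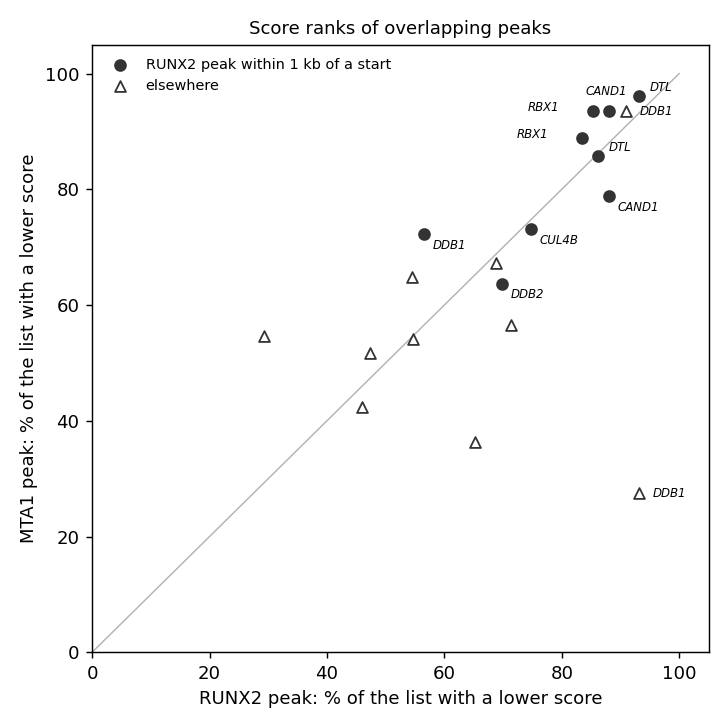
Rank of the RUNX2 peak (x axis) and of the MTA1 peak (y axis) in the 19 overlapping pairs, each as the percentage of its own list with a lower score, with equal ranks on the grey line. Pairs at starts of the ligase genes (filled circles) lie between 0.513 and 15.7 percentage points from equal ranks. Other pairs (open triangles), some of them at starts of neighbouring genes, lie between 0.482 and 65.6. The pair farthest from the line, at 93.1% and 27.5%, is upstream of DDB1.

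Other letters were looked for in the same 16 promoter windows, on both strands. These motifs were chosen after the data had been seen. CCAAT, the core of the NF-Y site, was present at CUL4B, DDB2 and DTL, 3 of 8 genes, against 42.1% of protein-coding genes. At DDB2 the matches beginning 72 and 42 bases before the first start lay under both peaks. The E-box CACGTG was present at RBX1, 117 bases before the start and under both peaks, and at CUL4B in a window without a peak. It was found in 10.9% of protein-coding genes. TGACGT, a part of the cyclic AMP response element, was present at DTL alone, against 11.7%. There it lay 17 bases before the start in the stretch that the MTA1 peak covered and the RUNX2 peak did not. The GC box GGGCGG was present at all genes but DTL, 7 of 8, against 64.3%. The GC content of the 16 windows ran from 42.7% to 79.7%, beside a median of 62.3% over protein-coding windows. The windows at the lower end, 42.7% and 45.7%, were those of the last and the outermost start of CUL4B, and neither window held a peak. The window at the upper end, 79.7%, at the fourth CUL4A start, held no peak either, nor did that of the outermost CUL4A start, at 53.7%.

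The wider pathway was examined with 5 lists of 64 genes in all, and each symbol was found. Of these genes, 60 had peaks of both libraries within 20 kb (93.8%, against 76.9% of all protein-coding genes) and 4 had neither (6.25%, against 12.7%). The 4 were the receptor-like genes DCAF4L2, DCAF8L2, DCAF12L1 and DCAF12L2. A start was listed for 56 of the 64. Of these, 40 had a RUNX2 start peak (71.4%), 46 an MTA1 start peak (82.1%) and 39 both (69.6%), beside 52.1%, 53.9% and 46.9% of all protein-coding genes. The list of neddylation and exchange, which holds the genes that attach NEDD8 to cullins, had both start peaks in 11 of 13. NEDD8 itself, NAE1 and UBE2M were among those with both, while UBA3 and CAND2 had neither. The substrate receptors had both in 15 of 22, the COP9 signalosome, which removes NEDD8, in 5 of 9, the other cullins with RNF7 in 4 of 6 and the substrates in 4 of 6.

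MTA1 start peaks without a RUNX2 start peak, the pattern of CRBN, were present at 7 of the 56 genes (12.5%, against 7.0% of protein-coding genes). The reverse was present at 1 of the 56, DCAF12 (1.79%, against 5.18%), and at 0 of the 8 ligase genes. The highest start ranks in both lists belonged to COPS4, a signalosome subunit (RUNX2 99.0%, MTA1 99.4%), and KMT5A, a histone methyltransferase destroyed through DTL (96.3% and 99.7%). They were above DTL, the highest of the 8 ligase genes.

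**Figure D5:**
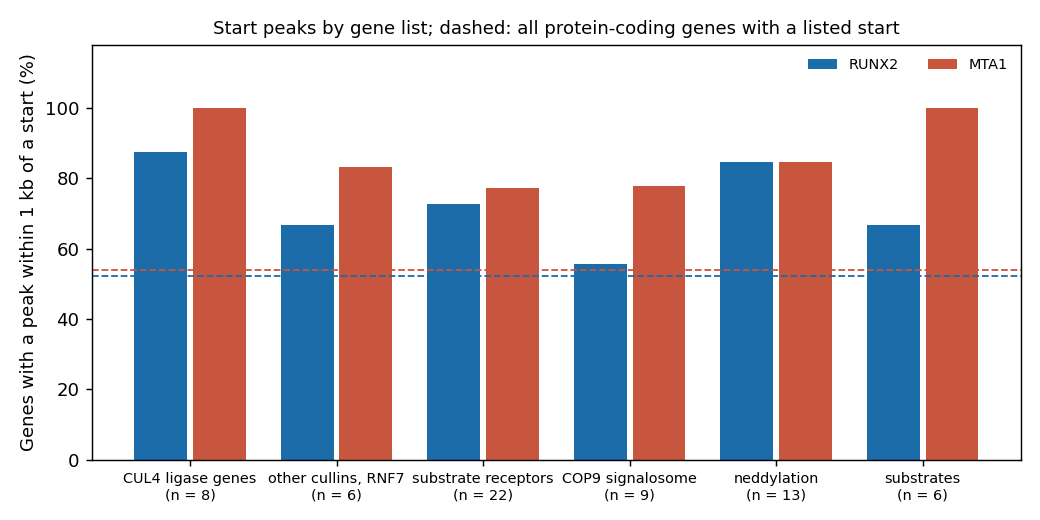
Percentage of genes with a RUNX2 (blue) or MTA1 (red) peak within 1 kb of an annotated start, for the 8 CUL4 ligase genes and 5 lists of pathway genes, with n the genes whose start is listed. The dashed lines are the shares over all protein-coding genes, 52.1% and 53.9%, and every bar is above the line of its colour.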

How the data were processed

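RUNX2 and MTA1 were profiled by CUT&Tag in untreated MDA-MB-231 cells, with 1 library per antibody. The authors deposited a peak list per library, each peak with a position and a score whose scale and threshold are not given in the sources used here. The submitters' processing notes name CASAVA 1.4, Bowtie 0.12.8, MACS, MACS2 and hg19. The labels describe end repair and adapter ligation, which CUT&Tag does not usually need. Although hg19 is named, a peak lay within 1 kb of 49.6% (RUNX2) and 51.6% (MTA1) of outermost GRCh38 starts, beside 7.35% and 5.69% after the starts were moved by 100 kb, so GRCh38 was used. Peaks on the nuclear chromosomes were matched to RefSeq genes and promoter sequences (GRCh38.p14) with Python 3.11.15, pandas 2.3.3, numpy 2.4.6 and scipy 1.17.1, by code tested on simulated data. Promoter starts were listed for 15843 of 20037 protein-coding genes. Scores were turned into ranks within a list, overlap required 1 bp, and intervals are exact binomial (Clopper-Pearson, 95%), covering the counting of peaks only. Reads were not analysed here, so the depth is unknown, and with no replicate no test was made. The genes and lists were chosen with earlier results of these data known. All 8 genes were described; where a gene had more than 5 peaks of a list the 3 highest-scoring were given by position, with any start peak. Of the pathway lists, the 2 genes with the highest start rank in each list and the genes with no peak were named, others being named as examples.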

Additional observations from a re-analysis of the deposited data

How the results depend on the processing

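No paired analysis was possible because each antibody has 1 library. Of 84 values recomputed under alternatives, 60 were close to those reported and 24 moved. A count was called close within 1.5 times the reported count, and a share or density inside its 95% interval, so close values could still differ, as did the RUNX2 peaks with a 5 kb window (22 against 32). With the gene span only, the 8 genes held 19 RUNX2 and 15 MTA1 peaks, with a 5 kb window 19 MTA1 peaks, and with a 50 kb window 57 and 51. Keeping peaks from the median score upwards gave 21 and 19 peaks, or 3.18 and 2.87 per 100 kb over the windows of the 8 genes pooled, against 4.84 and 4.69 with all peaks. Keeping only the top 10000 peaks per list by score gave 7 and 7, or 1.06 and 1.06 per 100 kb. Of the 8 genes, 4 then had an MTA1 peak and 4 both, 3 had a start peak of RUNX2, 3 of MTA1 and 3 of both, and 85.7% of the MTA1 peaks overlapped. With an overlap of 50% of both peaks, 41.9% of MTA1 peaks were shared. Among genes of the same length range, 89.4%, 86.2% and 83.2% had RUNX2, MTA1 or both peaks. Leaving out DDB2, chosen after seeing the data, left 20 MTA1 peaks. Within these limits, merging peaks within 500 bp left 28 RUNX2 and 25 MTA1 peaks, 4.24 and 3.78 per 100 kb. The promoter window gave 6 genes with a RUNX2 start peak, and the outermost start alone, chosen after seeing the data, 6 with RUNX2 and 7 with MTA1. Centres within 200 bp gave overlaps of 53.1% and 54.8%, and leaving out DDB2 gave 47.8% for RUNX2 and 60.0% for MTA1. Start windows of 3 kb and the 7-letter motif left their counts of genes as reported. Peak lists without reads or a control library do not show signal below the threshold.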
